A study of Mus musculus with 172 samples.

Results

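Arc, Homer1, Bdnf, Nptx2, Npas4 and Ptgs2 are activity-regulated genes of the brain, here followed in the cortex of BXD mice after sleep deprivation. They were taken by name wherever a table of normalised read counts listed them. All 6 were among the 14896 genes of the cortex tables, and 2 of them, Homer1 and Bdnf, were among the 14107 genes of the liver tables. The BXD panel consists of recombinant inbred lines bred from a cross of C57BL/6J with DBA/2J, so that each line carries a fixed mosaic of both parental genomes. The study profiled 33 BXD/RwwJ lines, C57BL/6J and DBA/2J in 2 collections each (B6-1, B6-2, D2-1, D2-2) and both reciprocal F1 crosses (BD-F1, DB-F1), which made 39 pools per tissue and condition. A further 4 pools labelled BXD/TyJ (05, 29, 29t and 32) were kept apart.

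Outside the BXD/TyJ panel, every library came from RNA pooled within a line. As a rule such a pool held 3 male mice aged 11 to 14 weeks, with fewer animals in BXD79, BXD85 and BXD101. For the BXD/TyJ pools, neither the age nor the number of mice is given. One pool of each line was kept awake by gentle handling for 6 h from light onset (SD) and the other was left undisturbed (Ctr), and both were sampled at the same clock time, 6 h after light onset. The Ctr and SD pools of a line were different animals of identical genotype. A line therefore had 1 library per condition and no replicate of its own. The labels give no sequencing batch. Cortical libraries held between 18995492 and 28998853 assigned reads. Levels are given as log2 CPM (normalised reads relative to the total of the library), a scale that is not corrected for transcript length, and so the levels of the 6 genes are compared between pools and not with each other.

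Neurons that fire strongly switch on a program of genes within minutes to hours. Calcium entry activates transcription factors already present in the cell, among them CREB, which binds cAMP response elements, and SRF. These induce further factors, such as the Fos, Egr and Nr4a families and Npas4, together with effector genes whose products act at the synapse. Arc promotes the endocytosis of AMPA-type glutamate receptors. Homer1 encodes scaffold proteins that couple metabotropic glutamate receptors to intracellular calcium stores, and its short activity-induced form, Homer1a, uncouples them. Bdnf is the neurotrophin that signals through TrkB. Nptx2 is a secreted pentraxin that clusters AMPA receptors at excitatory synapses on interneurons. Npas4 is a neuron-specific transcription factor that controls inhibitory synapses and is itself a regulator of Bdnf. Ptgs2, also called cyclooxygenase-2, makes prostaglandin H2 and is found in excitatory neurons of the forebrain.

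In the genome build of the count tables (mm9) the genes are spread over 6 chromosomes. Arc lies at chr15:74499513-74503000 on the minus strand, Homer1 at chr13:94073712-94174917, Bdnf at chr2:109514857-109567204, Nptx2 at chr5:145306756-145318347 and Ptgs2 at chr1:151947254-151955140 on the plus strand, and Npas4 at chr19:4984355-4989971 on the minus strand. Reads were counted per gene. The short and long forms of Homer1, and the transcripts that start from the different Bdnf promoters, were therefore summed.

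Promoter sequence is shown because these genes moved together in the cortex. RefSeq promoters (build GRCm38.p6, 250 bases before to 50 after an annotated start) were at hand for 4 of the 6 genes, with 7 starts for Bdnf, 2 for Homer1 and 1 each for Npas4 and Ptgs2. Both strands were searched for the full cAMP response element TGACGTCA, its core TGACG, the AP-1 site TGACTCA, the Egr site GCGTGGGCG, the TATA box TATAAA and the CArG box bound by SRF. The core TGACG is contained in the full element and was added to the search after seeing the data. The core, or its reverse complement CGTCA, was the only one of these present, and it occurred in 4 of the 11 windows, once or more for each of the 4 genes. Among all 32851 promoters of the same length, 20.8% held the core, 1.79% the full element, 5.2% the AP-1 site, 0.612% the Egr site, 13.6% the TATA box and 1.63% the CArG box. These shares are per promoter window, and a gene with several windows, such as Bdnf with 7, has more chances to hold the core. The 3 windows upstream of a start that held the core are printed 5′ to 3′ on the strand of the gene with the core in capitals, followed by the 30 bases around the core of Ptgs2, which lies just after the start.
Homer1, chr13:93303507-93303756, plus strand: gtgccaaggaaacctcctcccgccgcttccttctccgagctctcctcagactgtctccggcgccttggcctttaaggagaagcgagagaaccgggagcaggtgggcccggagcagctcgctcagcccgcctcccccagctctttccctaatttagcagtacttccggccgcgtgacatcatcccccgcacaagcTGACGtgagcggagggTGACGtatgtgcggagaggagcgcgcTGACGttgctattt
Npas4, chr19:4989972-4990221, minus strand: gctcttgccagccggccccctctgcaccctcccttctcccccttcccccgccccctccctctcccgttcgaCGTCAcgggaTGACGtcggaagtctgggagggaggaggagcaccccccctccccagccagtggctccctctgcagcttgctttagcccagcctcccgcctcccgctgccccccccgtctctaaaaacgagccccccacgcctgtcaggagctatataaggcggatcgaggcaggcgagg
Bdnf, chr2:109692186-109692435, plus strand: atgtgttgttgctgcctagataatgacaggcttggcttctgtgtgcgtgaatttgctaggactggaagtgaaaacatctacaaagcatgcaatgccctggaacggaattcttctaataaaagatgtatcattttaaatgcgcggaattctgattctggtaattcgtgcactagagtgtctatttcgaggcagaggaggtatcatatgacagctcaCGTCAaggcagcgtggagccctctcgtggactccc
Ptgs2, chr1:150100032-150100061, plus strand: gagtcaccactaCGTCAcgtggagtccgct

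Homer1 held 3 copies of the core, whose first bases lay at −56, −40 and −14 relative to the start. Npas4 held 2 copies in opposite orientation, at −179 and −169. The single copy of Bdnf lay at −35 in 1 of its 7 windows, and that of Ptgs2 at 14, after the start. A match describes letters only, and binding was not measured here.

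All 6 genes were higher after sleep deprivation in the cortex. Arc rose most, by 2.92 ± 0.09 on the log2 scale (SE, n = 39 pools per condition), a 7.57-fold change, and only Egr2 among the 14896 genes tested changed by more. Npas4 rose 2.80-fold, Ptgs2 2.38-fold, Bdnf 2.22-fold, Nptx2 1.84-fold and Homer1 1.82-fold. With limma across all genes, each had an adjusted p far below 0.05, from 4.07e-43 for Arc to 3.23e-11 for Ptgs2. The same threshold was passed upwards by 33.0% of all cortical genes and downwards by 35.4%, and the changes of these genes are therefore also ranked by size. By absolute size of the change, Npas4 ranked 32, Ptgs2 76, Bdnf 104, Nptx2 265 and Homer1 279. In tissue RNA, more cells expressing a gene and more RNA per cell cannot be told apart.

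Arc ranged over the 39 Ctr pools from 5.47 in DB-F1, through a median of 6.32, to 8.16 log2 CPM in BXD89. In the SD pools it ranged from 8.68, again in BXD89, through 9.33 to 10.09 in BXD44. The conditions did not overlap, although the highest Ctr pool came within 0.52 of its own SD partner. Behind these levels stood 973 to 5947 reads in Ctr and 9213 to 25921 reads in SD.

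Homer1 covered a much narrower range. Its Ctr level ran from 6.98 in BXD90 to 7.64 in BXD89 with a median of 7.35, and its SD level from 7.90 in BXD87 to 8.54 in BXD67 with a median of 8.22. Here too every SD pool lay above every Ctr pool. Such a complete separation was seen upwards for 1.01% of all cortical genes, and among the 6 genes it held for Arc and Homer1.

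Bdnf ran from 4.22 in D2-2 through 4.76 to 6.24 log2 CPM in BXD56 in Ctr, and from 5.44 in BXD87 through 5.95 to 6.46 in BXD51 in SD. A single Ctr pool, BXD56, lay above the lowest SD pool, and it was also the only pool whose Bdnf was lower after SD than before. Bdnf was thus higher after SD in 38 of 39 pools.

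Nptx2 behaved in a similar way, although 3 Ctr pools lay above its lowest SD pool. It ran from 4.84 in BXD79 through 5.35 to 7.24 in BXD56 in Ctr, and from 5.71 in BXD89 through 6.19 to 7.24 in BXD44 in SD. The Ctr pool of BXD56 almost reached the highest SD pool of the panel, whereas the next Ctr pool, BXD51, stood at 5.73. Nptx2 was higher after SD in 38 of 39 pools.

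Npas4, the transcription factor of the group, ran from 3.25 in BXD103 through 4.09 to 5.09 in BXD89 in Ctr, and from 4.74 in BXD70 through 5.53 to 6.11 in BXD66 in SD. It was higher after SD in 39 of 39 pools. Only the Ctr pool of BXD89 lay above the lowest SD pool.

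Ptgs2 had the widest range of levels. It ran from 1.84 in BXD44 through 3.58 to 4.97 in BXD56 in Ctr, and from 2.80 in BXD98 through 4.98 to 5.41 in BXD66 in SD. As many as 30 of the 39 Ctr pools lay above the lowest SD pool, yet within lines Ptgs2 was higher after SD in 38 of 39. It was also the gene with the fewest reads, 80 in its lowest Ctr library.

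**Figure D1:**
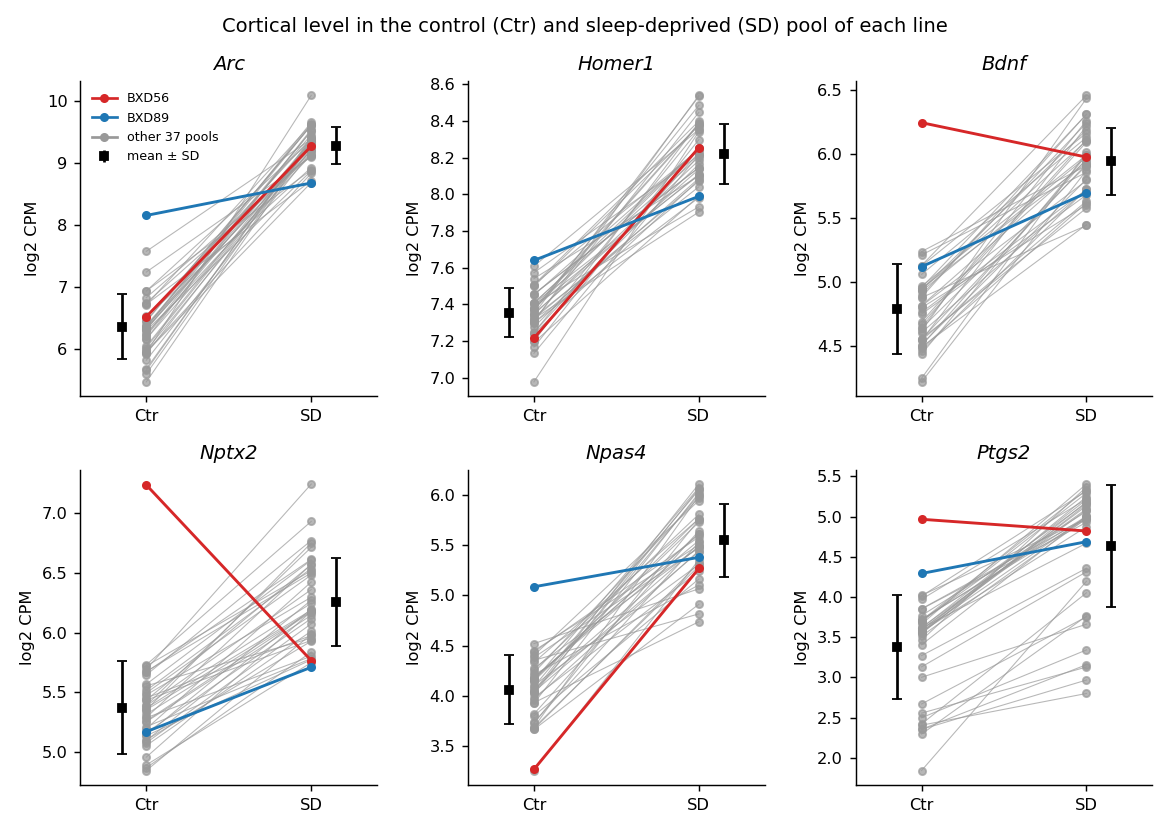
Level (log2 CPM) of each gene in the Ctr and SD pools of the 39 lines, strains and crosses; each line joins the 2 pools of 1 genotype, and black squares with bars give the mean and SD over the 39 pools. Arc and Homer1 separate completely, BXD56 (red) starts high for Bdnf, Nptx2 and Ptgs2, and BXD89 (blue) starts high for Arc and Npas4.

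Single pools of the 33 lines gave a wide range of changes. Over the 33 BXD/RwwJ lines the change of Arc had a median of 3.01 and ran from 0.52 in BXD89 to 4.16 in BXD44, that is from 1.44-fold to 17.8-fold. Its SD over lines was 0.67, against an SD of 1.02 between repeat pools of a parental strain, described below with the other repeats, and counting error alone would give 0.037. Npas4 changed by 0.29 in BXD89 to 2.31 in BXD71 (SD 0.48), and Ptgs2 by −0.15 in BXD56 to 2.35 in BXD44 (SD 0.50). Bdnf changed by −0.27 in BXD56 to 1.82 in BXD44 (SD 0.41), and Nptx2 by −1.47 in BXD56 to 1.55 in BXD44 (SD 0.50). Homer1 was the most uniform, from 0.35 in BXD89 to 1.36 in BXD90 (SD 0.23). Each line had 1 pool per condition, and these SDs hold the spread between pools as well as any difference between lines.

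BXD44 had the largest change for Arc, Bdnf, Nptx2 and Ptgs2, and BXD89 the smallest for Arc, Homer1 and Npas4. The Ctr pool of BXD44 had the lowest Ptgs2 of the 39 (1.84) and an Arc of 5.94 against a median of 6.32. From the median Ctr pool, its Bdnf differed by −0.15 and its Nptx2 by 0.34. The SD pool of BXD44 had 6 of 23 other activity-regulated transcription factors and 7 of 30 other effectors at their highest of the 39, against 3.67% of all genes. The SD pool of BXD89 had 7 of the 30 effectors at their lowest, together with Arc and Nptx2, against 393 of all 14896 genes. Compared with other genes of the cortex, the change of Arc varied more over lines than that of 97.1% of them, Ptgs2 more than 91.8%, Nptx2 91.6%, Npas4 91.0%, Bdnf 87.6% and Homer1 71.1%. Among the 8810 genes with at least the log2 CPM of Ptgs2, a limit on counting error rather than a comparison of levels, all 6 varied more than at least 96.2%.

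The parental strains, collected on 2 occasions, are the only guide to how far repeat pools of a genotype differ. The 2 collections differed in Ctr Arc by 0.77 in C57BL/6J (6.16 and 6.94) and by 1.28 in DBA/2J (6.94 and 5.66). The SD of repeat pools was 0.75 for Ctr Arc, larger than the 0.52 over the 33 lines, so that the lines cannot be ranked for Arc. Ctr Npas4 was alike in this, with 0.39 between repeats and 0.35 over lines. For Ctr Ptgs2 the repeats differed by 0.15 in C57BL/6J and 0.06 in DBA/2J, an SD of 0.08 against 0.64 over lines, and for Nptx2 the SDs were 0.13 and 0.42. The change of Arc was 3.38 and 2.43 in the 2 collections of C57BL/6J, and 1.95 and 3.76 in those of DBA/2J. For the change, the SD of repeat pools exceeded that over lines for Arc (1.02 and 0.67) and Npas4 (0.63 and 0.48). It was smaller for Ptgs2 (0.34 and 0.50), Bdnf (0.33 and 0.41), Homer1 (0.20 and 0.23) and Nptx2 (0.12 and 0.50). With 2 repeats of 2 strains these SDs are rough, and no difference in response between lines was tested.

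**Figure D2:**
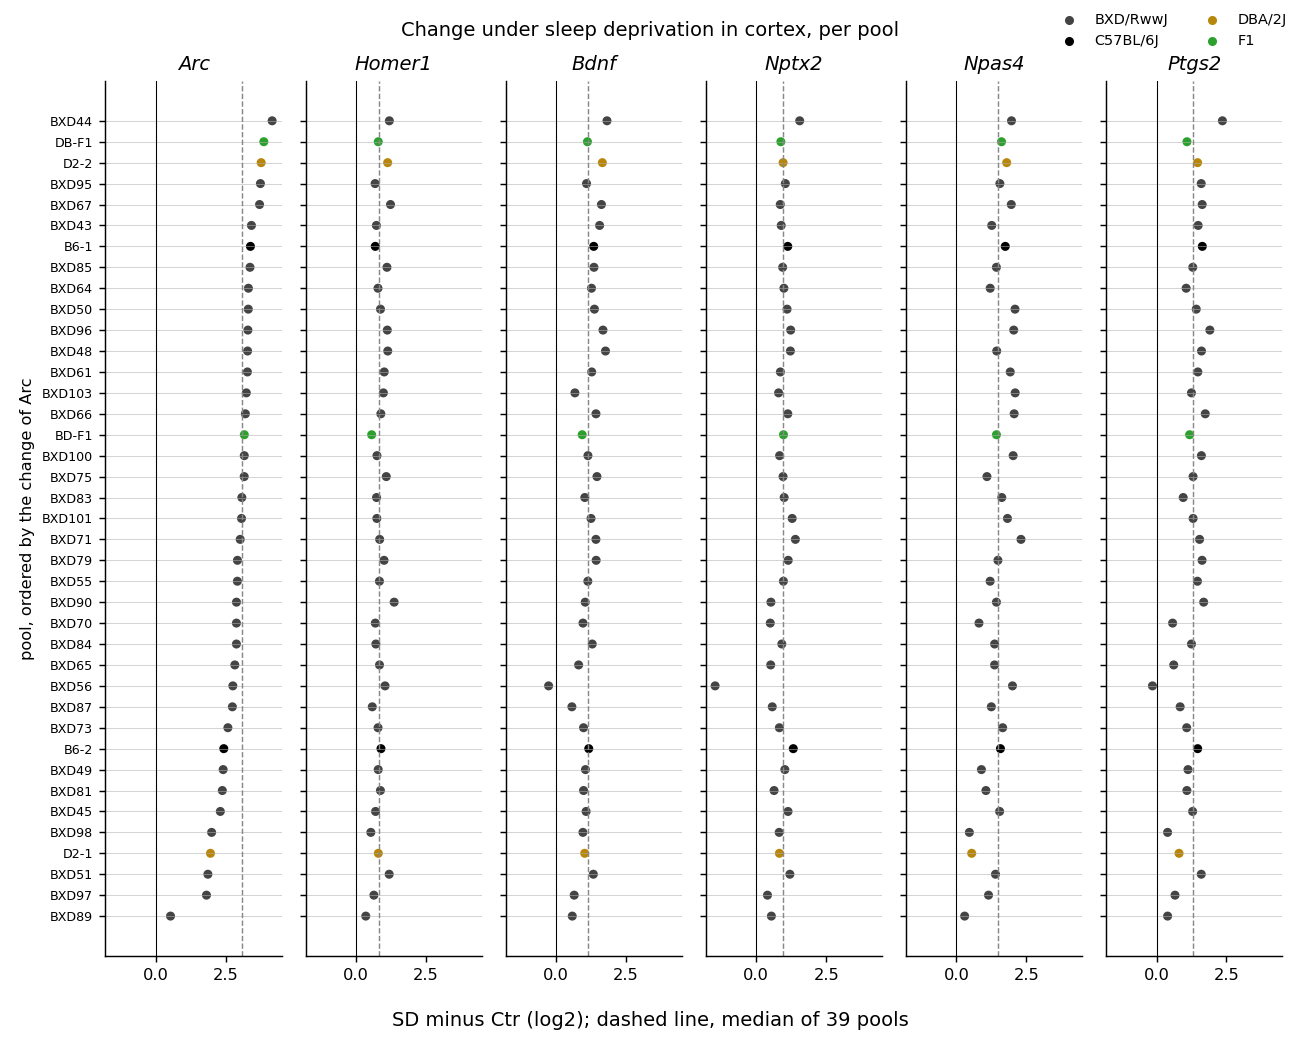
Change from Ctr to SD (log2) in each of the 39 pools, ordered by the change of Arc; the solid vertical line marks no change and the dashed line the median of the pools. The 2 collections of DBA/2J stand far apart for Arc, at 1.95 and 3.76, and BXD56 falls to the left of 0 for Bdnf, Nptx2 and Ptgs2.

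The Ctr pools of BXD56 and BXD89 stood apart, each in a different set of genes. The Ctr pool of BXD56 had the highest Bdnf (6.24), Nptx2 (7.24) and Ptgs2 (4.97) of the 39, while its Arc was 6.52 and its Homer1 7.22, inside the range of the other pools, and its Npas4 (3.26) was the second lowest. Of the other activity-regulated effectors listed, 13 of 30 were at their highest in this pool, as were 6 of 23 activity-regulated transcription factors, against 11.5% of all genes. Chosen after their values were seen, Maff stood 2.54 above the median Ctr pool, Inhba 2.15 and Gadd45b 1.85. The same pool had the highest summed level of the hippocampal markers Prox1, Dsp and Wfs1 (278 CPM, with the next pool at 167 and a median of 103) and of the 4 striatal markers Drd1a, Drd2, Ppp1r1b and Adora2a (246 CPM, next pool 159). Its choroid plexus markers ranked 4 of 39 (130 CPM, median 20.5, and 15.1 CPM in its SD pool), and the only listed hepatocyte marker, Ttr, which choroid plexus also expresses, ranked 5 (115 CPM). The part of these markers in the levels of Bdnf, Nptx2 and Ptgs2 was not tested. In the SD pool of BXD56 none of the 6 genes was at its highest or lowest of the 39.

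The Ctr pool of BXD89 had instead the highest Arc (8.16), Homer1 (7.64) and Npas4 (5.09), the second highest Ptgs2 (4.29), with Bdnf (5.12) and Nptx2 (5.17) inside the range of the other pools. Here 9 of 23 transcription factors and 8 of 30 other effectors were at their highest, against 2.62% of all genes. Egr2 was 2.34 and Fos 1.71 above the median Ctr pool, both named after their values were seen. Hippocampal and striatal markers were in the middle of their range in this pool (rank 11 and 14 of 39), its summed neuronal markers were the lowest of the 39 and its microglial markers the second highest, and their part was not tested. Without BXD56 and BXD89 the mean changes were 2.99 for Arc, 0.87 for Homer1, 1.21 for Bdnf, 0.96 for Nptx2, 1.51 for Npas4 and 1.31 for Ptgs2.

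In the whole panel, the neuronal markers of cortex were high in every pool. Summed neuronal markers stayed within 7848 and 8890 CPM in Ctr and 7631 and 8566 CPM in SD. Of the hepatocyte and pituitary markers, Alb, Apoa1, Serpina1c and Prl were not listed in the cortex tables. The mean log2 difference between SD and Ctr was within 0.10 for neurons, glia, endothelium, hippocampus and striatum, −0.24 for the pituitary markers that were listed and −0.37 for the choroid plexus markers, which ranged from 7.45 to 233 CPM over Ctr pools. For Ttr alone it was −0.46, with a range from 1.82 to 219 CPM.

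Ptgs2 levels fell into separate clusters over lines. In SD, the levels of 8 lines (BXD44, BXD65, BXD67, BXD70, BXD81, BXD87, BXD97 and BXD98) lay between 2.80 and 4.20 with a median of 3.50, and those of the other 25 between 4.67 and 5.41 with a median of 5.06. The gap of 0.47 between them was the widest in the order of SD levels. It was smaller than the difference of 0.60 in SD between both DBA/2J collections. The same 8 lines were the lowest in Ctr, where they had a median of 2.46 and a lowest level of 1.84, with a gap of 0.40 up to the other 25, which lay between 3.41 and 4.97. In Ctr the gap of 0.67 below the highest line, BXD56, and the gap above the lowest line, BXD44, were wider. These groups were drawn from the Ptgs2 level itself and are a description, with no test between them.

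C57BL/6J fell among the higher lines in both conditions (3.55 and 3.70 in Ctr, 5.18 and 5.17 in SD) and DBA/2J among the lower (2.36 and 2.30 in Ctr, 3.16 and 3.76 in SD). Both F1 crosses lay in the gap between the clusters, at 3.13 and 3.27 in Ctr and at 4.31 and 4.36 in SD. The 4 BXD/TyJ pools all lay low, from 2.15 to 2.86 in Ctr and from 3.35 to 3.65 in SD.

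**Figure D3:**
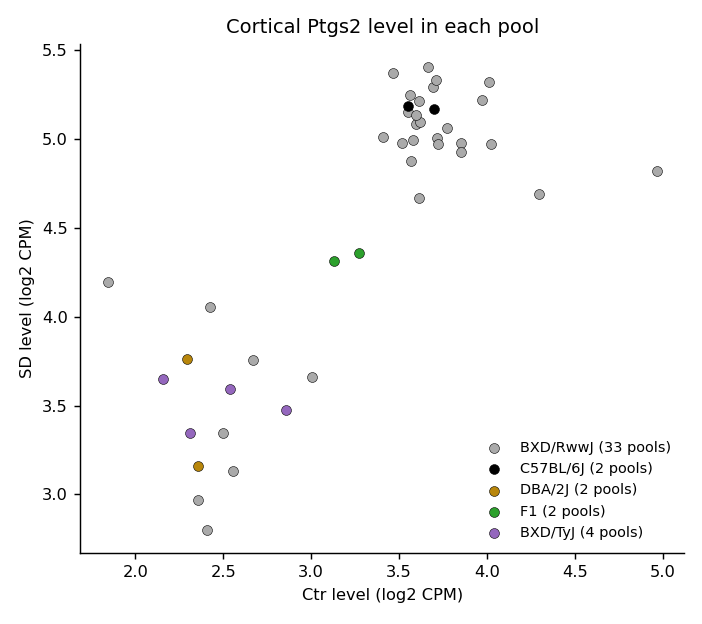
Cortical Ptgs2 level (log2 CPM) in Ctr (horizontal) and SD (vertical) for each of 43 pools, coloured by panel. The C57BL/6J pools lie in the upper cluster with 25 BXD/RwwJ lines, the DBA/2J and BXD/TyJ pools in the lower with 8, and the F1 crosses in between.

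The parental strains allowed a test of the difference in level, with both collections and both conditions of each strain (4 against 4 libraries) and condition as a covariate. Ptgs2 was 2.84-fold lower in DBA/2J than in C57BL/6J (−1.51 ± 0.12 on the log2 scale, limma adjusted p = 1.79e-07). Nptx2 was lower by −0.61 ± 0.07 (adjusted p = 9.44e-06) and Bdnf by −0.49 ± 0.08 (adjusted p = 0.00019). These 3 differences passed the threshold also when each collection was left out in turn. Homer1 passed as well, at −0.21 ± 0.07 (adjusted p = 0.027), but not without the second C57BL/6J collection (−0.14, adjusted p = 0.232) or without the first DBA/2J collection (−0.14, adjusted p = 0.286).

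Neither Arc (−0.28 ± 0.21, adjusted p = 0.378) nor Npas4 (−0.31 ± 0.15, adjusted p = 0.144) passed. Npas4 did pass without the first DBA/2J collection (−0.39, adjusted p = 0.00532). Of all cortical genes 25.5% passed in either direction, so the 4 of 6 are to be read against a high background. By size of the strain difference Ptgs2 ranked 243 among all genes.

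Whether the strains differed in their response was tested with the interaction of strain and condition. None of the 6 passed in limma (adjusted p from 0.99 to 0.997), against 1 of 14896 genes, or 0.00671%. The smallest unadjusted p of the 6 was that of Nptx2, which rose by 0.33 ± 0.11 less in DBA/2J (p = 0.0102, adjusted p = 0.99, both in limma). The standard error of the interaction was 0.44 for Arc, so that even a large difference in its response was not detectable with 2 pools per strain and condition.

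In most pairs, lines with a larger change of one gene also had a larger change of the other. Pearson's r and Spearman's rho were computed over the 33 BXD/RwwJ lines for each pair of genes, in Ctr, in SD and for the change, and for each gene between Ctr and SD. Levels of Ptgs2 were related only within its higher cluster of 25 and its lower cluster of 8 lines. This made 62 relations, tested with 100000 permutations of the lines (exact permutation for 8 lines) and adjusted together, and 30 passed on Pearson's r, all of them positive. By quantity 6 were in Ctr, 13 in SD and 11 of 15 in the change. BXD96, BXD97 and BXD103 are sublines and may not be independent of other lines. Without them 24 relations passed, 4 in Ctr, 10 in SD and 10 in the change. The lowest r that passed among the 15 pairs of changes was 0.41, and 5.16% of all pairs of cortical genes had an r at least as high. Leaving Ptgs2 aside, 3 of 10 pairs passed in Ctr, where 4.75% of all gene pairs reached their lowest r of 0.42, and 7 of 10 in SD, where 1.87% reached 0.45. Without the 2 lines farthest from the median of the first gene, 7 of the 15 pairs of changes passed. Both genes of a pair were read from the same libraries, and the change of every gene in a line contains the same Ctr pool. For Arc and Npas4 the change varied more between repeat pools than over lines. Differences between lines and between single pools cannot be told apart in these relations.

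The clearest relation of levels was that of Homer1 with Bdnf in SD, with r = 0.79 and rho = 0.74 (permutation p = 1e-05 for both, the smallest these permutations can give, adjusted p = 0.000155 for r). It stood at 0.75 without the 2 lines farthest from the median Homer1, BXD67 and BXD51. Arc and Npas4 were related in SD with r = 0.72 and rho = 0.67 (permutation, adjusted p = 0.000266), and with r = 0.74 without BXD44 and BXD89. Npas4 was also related in SD to Bdnf (r = 0.50, permutation adjusted p = 0.0128) and Homer1 (r = 0.49, adjusted p = 0.0132), and without the farthest 2 lines these were 0.34 and 0.50. Nptx2 in SD was related to Bdnf (r = 0.45, permutation adjusted p = 0.0205, 0.46 without the farthest 2) and passed with none of Arc (0.26), Homer1 (0.22) or Npas4 (0.31).

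Within the 25 lines with higher Ptgs2, its SD level rose with that of Bdnf (r = 0.59, rho = 0.58, permutation adjusted p = 0.00885, and 0.59 without the farthest 2 lines). In the 8 lines with lower Ptgs2 the same pair had r = 0.89 and rho = 0.83 (exact permutation, adjusted p = 0.0128), and r was 0.70 without BXD44 and BXD67. With Npas4 the r was 0.91 in the lower 8 lines (exact permutation, adjusted p = 0.0128) and 0.39 in the higher 25 (permutation, adjusted p = 0.0987). The difference between the clusters was not tested.

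In Ctr, relations depended on single pools. Bdnf and Nptx2 had r = 0.71 (permutation adjusted p = 0.00688) but rho = 0.34 (adjusted p = 0.103), and r was 0.26 without the farthest 2 lines, BXD56 and BXD48. Arc and Npas4 had r = 0.51 (permutation adjusted p = 0.0148), and 0.16 without BXD89 and BXD97. Both of these relations rested on the lines left out. Of the 6 that passed in Ctr, Bdnf with Ptgs2 in the higher 25 lines held up, with r = 0.85 in all and 0.64 without BXD56 and BXD48 (rho = 0.67, permutation adjusted p = 0.00287).

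For the change over all 33 lines, the 3 highest r were those among Bdnf, Nptx2 and Ptgs2. Bdnf with Nptx2 had r = 0.84 and rho = 0.75, Bdnf with Ptgs2 r = 0.84 and rho = 0.81, and Nptx2 with Ptgs2 r = 0.75 and rho = 0.64 (permutation adjusted p = 0.000155 for each r). BXD56 is the extreme line of all 3 pairs. Without it and BXD44, the r values were 0.72, 0.74 and 0.64. Arc and Npas4 had the next highest r (r = 0.64, rho = 0.51, permutation adjusted p = 0.000266), with r = 0.50 without BXD89 and BXD97. Arc was related to Ptgs2 with r = 0.60 (permutation adjusted p = 0.00349, 0.51 without the same 2 lines). Ptgs2 was also related to Homer1 (r = 0.55, permutation adjusted p = 0.00688) and to Npas4 (r = 0.51, adjusted p = 0.0128). Without BXD56 and BXD89, Ptgs2 had r = 0.66 with Homer1, 0.65 with Npas4 and 0.60 with Arc, near its 0.68 with Nptx2.

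The 4 pairs that did not pass were Nptx2 with Arc (0.28), Homer1 (0.08) and Npas4 (0.13), and Bdnf with Npas4 (0.24). Without BXD56, chosen after seeing the data, 14 of the 15 pairs passed, and r rose to 0.53 for Nptx2 with Npas4 and to 0.46 for Bdnf with Npas4 (permutation adjusted p = 0.00616 and 0.0176). Without BXD89, likewise chosen, 8 pairs passed, and Homer1 no longer passed with Arc (0.35), Bdnf (0.35) or Npas4 (0.38).

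**Figure D4:**
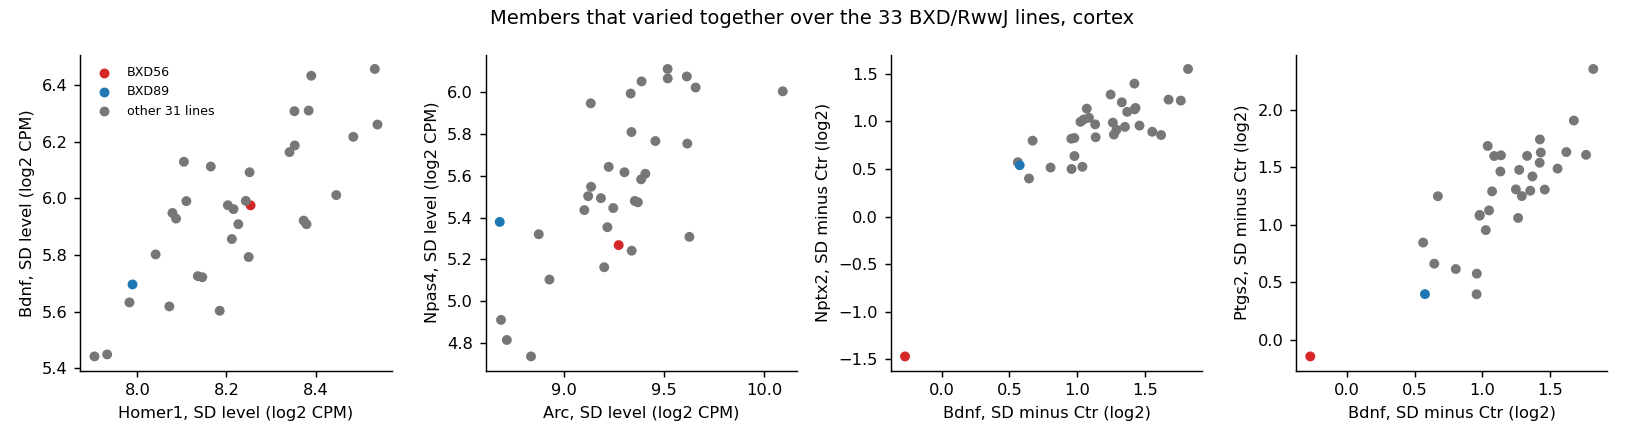
Pairs of genes over the 33 BXD/RwwJ lines, SD levels (log2 CPM) in the first 2 panels and changes from Ctr to SD (log2) in the last 2; each point is a line. Homer1 and Bdnf rise together in SD (r = 0.79), as do Arc and Npas4 (r = 0.72), and BXD56 (red) lies far from the other lines in the panels of changes.

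Ctr and SD levels were not detectably related for most of these genes. Pearson's r between both conditions was −0.26 for Arc, −0.12 for Homer1, 0.15 for Bdnf, 0.20 for Nptx2 and 0.09 for Npas4, and none passed (permutation adjusted p from 0.195 to 0.669). The median over all cortical genes was 0.33, given as a description. Nptx2 is an exception of rank: its rho was 0.52 (permutation adjusted p = 0.0117), and r was 0.66 without BXD56 and BXD79. For Ptgs2 the same 8 lines were the lowest in both conditions, as described above, and no r is given across the clusters. Within them the relation did not pass (−0.35 over 25 lines and −0.22 over 8 lines, adjusted p = 0.144 and 0.669, permutation and exact permutation).

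The spread over lines was compared between conditions from the correlation of each line's change with its mean level. For Arc it was smaller in SD, with an SD over lines of 0.31 against 0.52 in Ctr (r = −0.50, permutation adjusted p = 0.0223 over 7 tests). This rested on few lines: rho was −0.31 (adjusted p = 0.291), r was −0.18 without BXD89 and BXD97, and the adjusted p was 0.156 without BXD56 and BXD89. None of the other genes passed. Their SDs over lines in Ctr and SD were 0.13 and 0.17 for Homer1, 0.36 and 0.26 for Bdnf, 0.42 and 0.37 for Nptx2 and 0.35 and 0.37 for Npas4.

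For each gene, the 3 others with the most similar change over the 33 lines were taken. Those of Arc were Trib1, a pseudokinase (r = 0.87), Sik1, a salt-inducible kinase (0.86), and Dusp1, a phosphatase that switches off MAP kinases (0.86). Homer1 was nearest to the kinase Rock2 (0.86), the AP-1 factor Fosl2 (0.85) and the prohormone convertase Pcsk1 (0.85), which rose by 0.97 with SD. Bdnf was nearest to the RNA-binding protein gene Hnrnpll (0.88), secretogranin Scg2 (0.87) and the kinase Stk40 (0.87).

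For Nptx2 the nearest were Tspan5 (0.87), Srxn1 (0.86) and Gadd45b (0.86), and these fell to 0.65, 0.50 and 0.67 without BXD56 and BXD89. Npas4 was nearest to Btg2 (0.75), the nuclear receptor Nr4a1 (0.74) and the kinase Pim3 (0.73). Ptgs2 was nearest to the AP-1 factor Fosb (0.84), to Bdnf (0.84) and to Scg2 (0.81). Bdnf was the only member of the group among the nearest 3 of another. By the same measure Nptx2 ranked 8 and Ptgs2 9 of 14895 for Bdnf, and Arc ranked 13 for Npas4. For Ptgs2, Nptx2 ranked 18, and for Nptx2, Ptgs2 ranked 37. Some pairs ranked far lower even where their relation had passed, with Arc at 927, Npas4 at 1076 and Bdnf at 1813 for Homer1. The rank depended on the gene it was taken from, and for Npas4, Homer1 ranked 110. The correlations over 33 lines given here are descriptive.

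The other genes of the program and the partners of the 6 products were followed in lists. Of 23 other activity-regulated transcription factors in the cortex tables, 21 rose and none fell, with a median change of 1.01 against −0.01 over all genes tested, of which 33.0% rose and 35.4% fell. Egr2 rose by 3.04, Fos by 2.25 and Fosb by 1.76, and Jun and Jund did not pass. Among 30 other activity-regulated effectors, 28 rose and none fell (median 0.69), led by the Ras-like protein gene Rasd1 (1.63), Sik1 (1.47) and Trib1 (1.46). Both lists were chosen with earlier results of these data known, and the counts are a description.

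The counts in the lists of partners are to be read against the same 33.0% and 35.4% of all genes, and no list was tested against other genes. Of 20 genes for partners of Arc at the synapse and endosome, 8 rose, 7 fell and 5 did not pass, with a median change of 0.00, which is near the shares of all genes. The AMPA receptor auxiliary subunit Cacng2 rose by 0.35, endophilin Sh3gl1 by 0.26 and the ubiquitin ligase Rnf216, which acts on Arc, by 0.16. The receptor subunits Gria4 and Gria2 and the actin regulator Wasf1 fell by 0.19, 0.13 and 0.17 on the log2 scale.

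Among 14 Homer ligands and scaffold genes, 7 rose and 3 fell (median 0.10). The postsynaptic scaffolds Shank2, Shank1 and Shank3 rose by 0.52, 0.29 and 0.25. Homer3, Dlgap1 and Agap2 fell by 0.20, 0.14 and 0.04 on the log2 scale.

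For Bdnf, 15 genes of processing, receptors and signalling were listed, of which 9 rose and 3 fell (median 0.07). The convertase Pcsk1 rose by 0.97 and the protease gene Plat by 0.39. The TrkB gene Ntrk2, named after its value was seen, rose by 0.24. The related neurotrophin Ntf3 fell by 0.79, the receptor Ngfr by 0.24 and the adaptor Frs2 by 0.05 on the log2 scale.

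Of 8 genes for other pentraxins and AMPA receptors, 4 rose and 2 fell (median 0.10). Nptx1 rose by 0.29, the sheddase Adam17 by 0.15 and the auxiliary subunit Cnih2 by 0.12, and Gria4 and Gria2 were the 2 that fell. The 3 dimer partners of Npas4 split, with Arntl up by 0.32, Arnt up by 0.11 and Arnt2 lower by −0.11.

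Of 18 genes of prostaglandin synthesis and receptors, 4 rose and 7 fell (median −0.10), where 33.0% and 35.4% of all genes did. The receptor Ptger1 rose by 0.39, the synthase cochaperone Ptges3 by 0.31 and the transporter Slco2a1 by 0.25. The receptors Ptger3 and Tbxa2r and the inducible synthase Ptges fell by 0.62, 0.35 and 0.26 on the log2 scale. The constitutive cyclooxygenase Ptgs1 (−0.12) and Ptgds, the prostaglandin D synthase of brain (−0.08), did not pass, both named here after their values were seen.

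**Figure D5:**
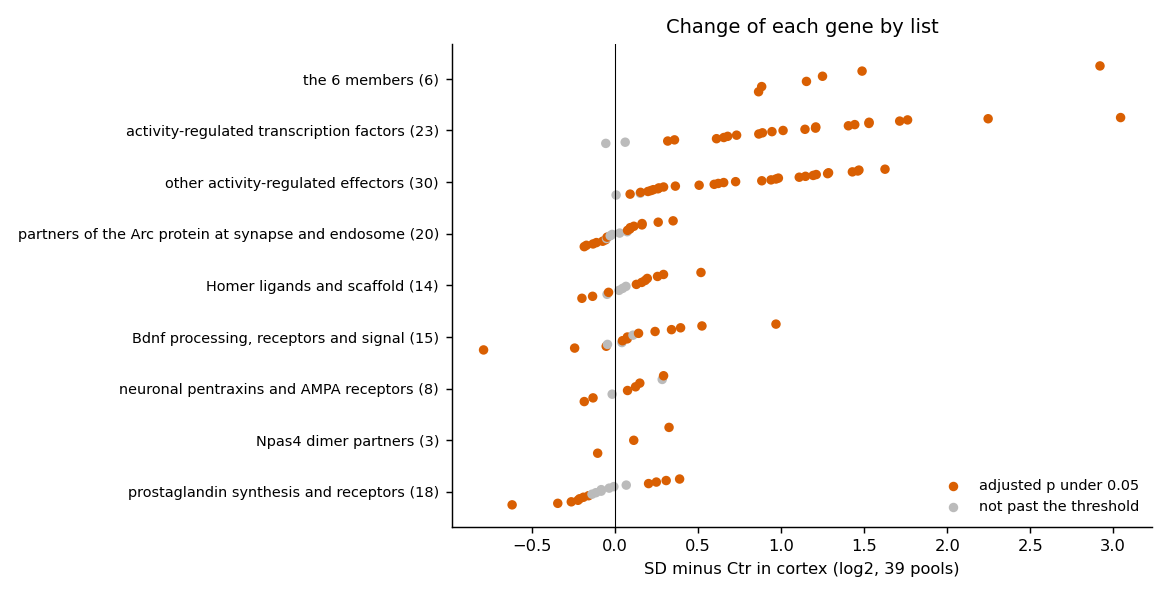
Change from Ctr to SD in cortex (log2, 39 pools per condition) of every gene in each list, 1 point per gene, with orange points past an adjusted p of 0.05 in limma. The 6 genes lie between 0.86 and 2.92, the transcription factors have a median of 1.01, and the medians of the partner lists lie between −0.10 and 0.11.

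In the liver, only Homer1 and Bdnf were listed, and both were lower after SD. Homer1 had a median of 5.37 in Ctr, with a range from 5.04 to 5.70, and of 5.25 in SD, with a range from 4.36 to 5.59 log2 CPM. It fell by 0.16 ± 0.05 on the log2 scale (limma adjusted p = 0.0036), and was lower in 25 of 39 pools. Bdnf had a median of 3.29 in Ctr (2.62 to 4.41) and of 3.07 in SD (2.02 to 4.26), fell by 0.25 ± 0.10 (limma adjusted p = 0.0342) and was lower in 32 of 39 pools. Ctr and SD overlapped over nearly their whole ranges, and 22.6% of liver genes passed downwards. The depth was low, with a median of 270 reads for Homer1 and 67 for Bdnf in Ctr.

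The response of these 2 genes differed between the tissues. Subtracting a line's cortical change from its hepatic change gave −1.02 ± 0.06 for Homer1 (limma adjusted p = 1.37e-17) and −1.40 ± 0.09 for Bdnf (adjusted p = 6.94e-16), the change being lower in liver in 39 and 38 of 39 pools. A difference in that direction passed for 29.6% of the 12695 genes listed in both tissues.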

How the data were processed

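RNA from cortex and liver was sequenced on an Illumina instrument (stranded libraries, single-end reads). Per the study's methods the authors mapped reads with STAR (mm9), assigned them by strand to RefSeq genes with htseq-count, removed genes with low counts, and deposited TMM-scaled log2 CPM values, 1 table per tissue and condition. An aligner version is not given in the sources used here. Whole reads were recovered from the deposited log2 values (within 0.02 read) and used for depth, counting error, a prior count of 5 and voom. SD and Ctr were compared with limma 3.58.1 (moderated, with a mean trend) over 39 pools per condition without a line term. Benjamini-Hochberg adjustment was over all genes of a table. The tissue difference was fitted on the change per line. Ctr and SD pools of a genotype deviated together over genes in all 39 pairs of cortex (r from 0.30 to 0.71) and of liver (0.17 to 0.65). In each tissue 37 of the 39 Ctr pools were best matched by the SD pool of their own line. The lines therefore pair the samples by genotype. Where 1 pool per line is the sample, p-values measure the spread between pools of different genotypes, technical spread included. Shares of all gene pairs are descriptive. The fits were tested on simulated data. Leaving out BXD56 and BXD89, relating Ptgs2 levels within clusters of lines and searching the core TGACG were chosen after seeing the data. Members and lists were chosen with earlier results of these data known. Named genes were the 6 members, the 3 most similar genes for each, and at most the 3 largest rises and 3 largest falls past the threshold per list, and the few others named are said to be so. Some genes of the lists are not reported here by name.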

Additional observations from a re-analysis of the deposited data

Results flagged for a closer look

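The change of Homer1 and of Bdnf with SD differed between liver and cortex, by −1.02 and −1.40 on the log2 scale (liver minus cortex, 39 pools, limma adjusted p = 1.37e-17 and 6.94e-16). Both genes were higher after SD in cortex and lower in liver.

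Among the 4 BXD/TyJ pools, Ctr Npas4 in cortex stood out in BXD29t, at 4.67 log2 CPM against 3.89 to 3.93 in the other 3 pools, a gap beyond Dixon's 95% critical value for 4 samples. In all, 24 such groups of 4 values were examined and chance exceeds it in about 1 in 20.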

How the results depend on the processing

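The changes of the 6 genes with SD in cortex, and of Homer1 and Bdnf in liver and between tissues, kept direction and call under every alternative run: line as a replicate block (11359 genes called in cortex, against 10191 without it, and 7603 against 6229 in liver), no mean trend, median-centring, a level filter, a prior count of 5, the 33 lines alone, all 43 pools, without the 3 lines of fewer mice, voom, and, added after seeing the data, without BXD56 and BXD89. Between the parental strains the number of genes called ranged from 2398 to 3417 when a collection was left out (3804 with all). For the interaction it ranged from 0 to 1, at 463 to 959 genes with an unadjusted p under 0.05, and was 2 with the collection as a replicate block. Leaving a collection out turned the sign of the interaction, which none passed, for Arc (from −0.95 to 0.86), Bdnf (from −0.23 to 0.40) and Npas4 (from −1.11 to 0.14). A lone remaining pool was then assumed to vary like the others. Of the 62 relations over lines, 15 passed without the 2 farthest lines, 13 of them among the 30, and 24 to 34 under the other alternatives, with 1 negative after median-centring and 3 negative without BXD89. Without BXD56 and BXD89 no spread test passed, and r of change with mean level turned to 0.044 for Bdnf, 0.43 for Nptx2 and 0.078 for Ptgs2 in the higher lines. In liver, counting error alone gives an SD of the change of 0.13 for Homer1 and 0.26 for Bdnf, where the SDs over pools were 0.28 and 0.36.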
